A study of Mus musculus with 2 samples.

Results

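The GTPases of immunity-associated proteins (GIMAPs) are encoded in the mouse by a single gene cluster, and the 8 members listed in the count tables (Gimap1, Gimap3, Gimap4, Gimap5, Gimap6, Gimap7, Gimap8 and Gimap9) were followed here among 32285 genes. They were picked by gene name, with earlier results of these data known, and were quantified in every marker-gated cell type of the E14.5 fetal liver as CPM (the UMIs of a gene per 1e6 UMIs of the gate) and as the share of positive cells, first in stem cells against lymphoid cells and then in IκBα KO against WT cells. All 8 members had UMIs in both libraries, from 6484 UMIs in WT and 5415 in KO for Gimap1 down to 61 and 47 UMIs for Gimap3.

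GIMAP proteins are small GTP-binding proteins of the septin and dynamin-like superfamily, several of which sit on the membranes of lysosomes, the endoplasmic reticulum or the Golgi. They are best known from lymphocytes, where loss of individual members shortens the life of naive T and B cells. GIMAP5 also acts outside the lymphoid lineage, since its loss in mice disturbs the quiescence and survival of hematopoietic stem cells and the integrity of the liver endothelium.

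Fetal livers of E14.5 CD1 embryos (an outbred stock) were lineage depleted, sorted for LSK cells, which lack lineage markers and carry both SCA1 and cKIT, and profiled by droplet-based 3′ single-cell RNA sequencing. The WT library held cells pooled from 2 embryos and the IκBα KO library cells pooled from 3 embryos, in which both copies of Nfkbia, the gene of the NF-κB inhibitor IκBα, are disrupted by a germline targeted allele (Nfkbia tm1Bal). The titles of both samples name LT-HSCs while their cell type entry names LSK cells. With 1 library per genotype there was no replicate and no test. Every interval given is a 95% interval of the counting error alone, which leaves out the spread among embryos and among libraries. Intervals of CPM and of ratios, taken from UMIs summed over a gate, also leave out the spread among its cells.

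The filters left 3458 cells in WT and 4417 in KO, whose median depths were 28065 and 19560 UMIs, and 7 barcodes occurred in both libraries. Nfkbia was counted 1478 times in WT and 7 times in KO cells, which matched the labels. Male cells (Y-linked UMIs present, Xist absent) made up 0.116% of the WT and 17.4% of the KO library. The gates held far more than LSK cells. Erythroid cells defined by Klf1 and Gata1 made up 708 (Kit-positive) and 803 (Kit-negative) WT cells and 736 and 1102 KO cells, and Ly6a, which encodes SCA1, had a UMI in 1.37% and 0.817% of the Kit-negative erythroid cells against 34.5% (WT) and 26.4% (KO) of the stem cell gate. Endothelial (58 WT and 80 KO cells), macrophage (82 and 127) and hepatocyte cells (32 and 65) were also found.

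Of these gates, 3 carried the comparison of stem and lymphoid cells. The stem cell gate required UMIs of both Hlf and Mecom, transcription factors of long-term stem cells, with no Gata1, and held 386 WT and 333 KO cells. Procr and Mllt3, stem cell genes that had no part in gating, had UMIs in 34.7% and 65.8% of its WT cells and in 26.7% and 55.6% of its KO cells. The Flt3 lymphoid-primed gate (72 WT and 84 KO cells) required Flt3 with an early lymphoid transcript and neither Hlf nor Mecom. The Il7r lymphoid gate (95 WT and 88 KO cells) required at least 2 UMIs of Il7r, the interleukin-7 receptor, and 1 of a further lymphoid gene. Its cells were early: Ebf1, a B lineage transcription factor, had UMIs in 49.5% of its WT and 56.8% of its KO cells and Igll1 of the pre-B cell receptor in 10.5% and 9.09%, whereas Dntt and the T cell gene Cd3e had no UMI. Mpo, a myeloid granule gene, had a UMI in 84.2% (WT) and 75% (KO) of them, and 39 WT and 24 KO cells of this gate also met the criteria of a nonlymphoid gate, most often the monocyte and dendritic one. At the edges, 192 WT and 224 KO stem cells had only 1 UMI of Hlf or of Mecom, 36 and 27 lymphoid cells had exactly 2 Il7r UMIs, and 448 WT and 497 KO cells with Hlf or Mecom fell in no gate.

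The 8 genes lie side by side on chromosome 6 (GRCm38, GENCODE vM21), chr6:48647234-48770851, in the order Gimap8, Gimap9, Gimap4, Gimap6, Gimap7, Gimap1, Gimap5 and Gimap3 over 123.618 kb. The annotation gives Gimap8 at chr6:48647234-48660875, Gimap9 at chr6:48676129-48679114, Gimap4 at chr6:48684549-48692060 and Gimap6 at chr6:48701582-48708225. Gimap7 lies at chr6:48718621-48724636, Gimap1 at chr6:48739054-48743795, Gimap5 at chr6:48746197-48754210 and Gimap3 at chr6:48764464-48770851. All 8 are protein-coding. Gimap6 and Gimap3 are on the minus strand and the other members on the plus strand. Levels were not the same along this order. Gimap6 and Gimap1, the most abundant members in stem cells, flank Gimap7, one of the rarest, and Gimap4, the leading endothelial member, sits between Gimap9 and Gimap6.

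**Figure D1:**
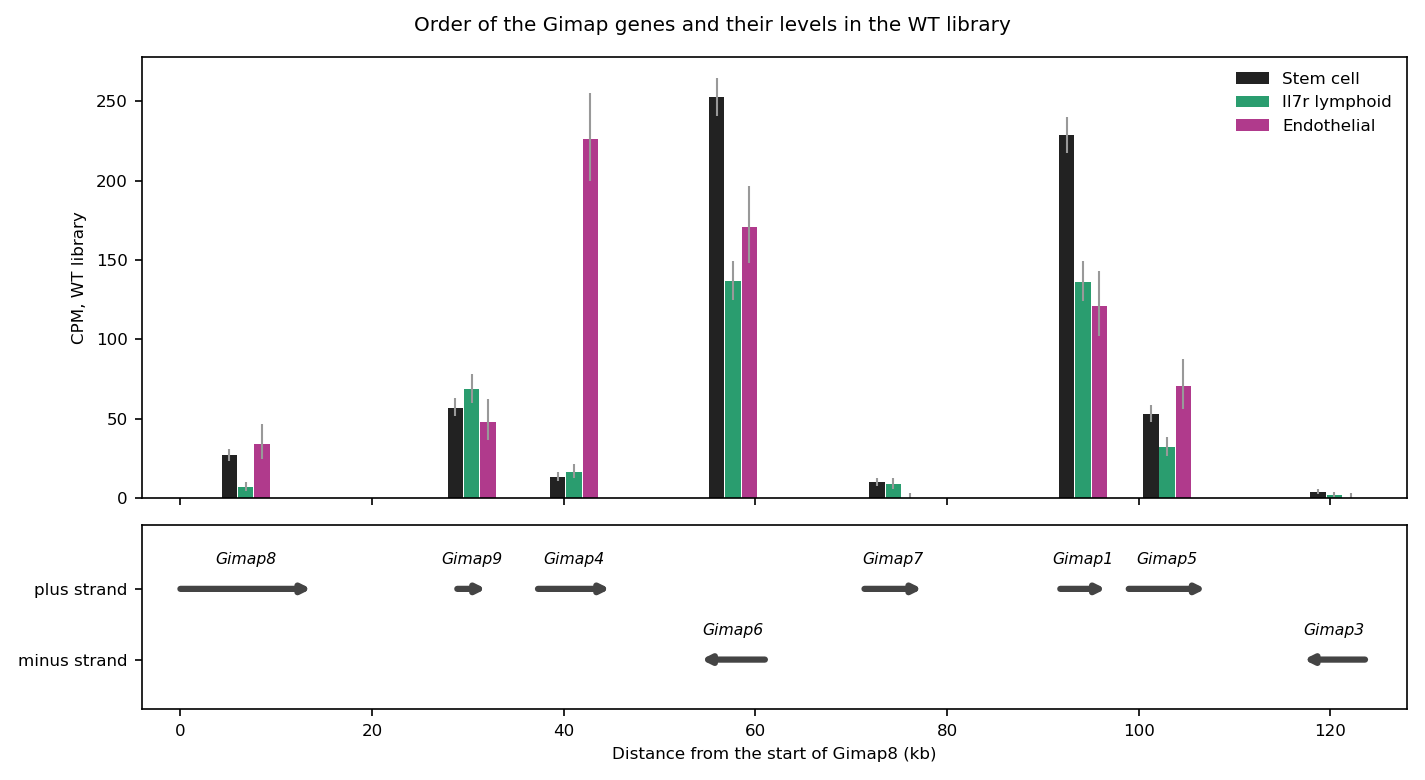
Order of the 8 Gimap genes and their levels in the WT library. The upper panel plots CPM with 95% Poisson intervals (thin lines) in the stem cell, Il7r lymphoid and endothelial gates at the position of each gene, and the lower panel the genes as arrows in the direction of transcription against the distance from the start of Gimap8 in kb. Gimap4 stands at 226 CPM in endothelial cells and below 20 CPM in the other gates shown, while its neighbour Gimap6 is high in all 3 gates.

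The 250 bases before the RefSeq transcription start of Gimap6, Gimap1 and Gimap5 (the 3 members whose levels were most alike across the gates) and of Gimap4 (the leading endothelial member) are shown as the sequence background of these patterns, 5′ to 3′ in the direction of transcription, on GRCm38.p6. Capitals mark an ETS core (GGAAGT) or a RUNX core (TGTGGT, which reads ACCACA on the other strand).
Gimap6, chr6:48708245-48708494, minus strand: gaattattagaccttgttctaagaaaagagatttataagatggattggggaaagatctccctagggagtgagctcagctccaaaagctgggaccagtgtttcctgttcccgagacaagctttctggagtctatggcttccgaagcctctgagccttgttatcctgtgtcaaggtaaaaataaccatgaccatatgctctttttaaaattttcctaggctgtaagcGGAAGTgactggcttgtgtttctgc
Gimap1, chr6:48738797-48739046, plus strand: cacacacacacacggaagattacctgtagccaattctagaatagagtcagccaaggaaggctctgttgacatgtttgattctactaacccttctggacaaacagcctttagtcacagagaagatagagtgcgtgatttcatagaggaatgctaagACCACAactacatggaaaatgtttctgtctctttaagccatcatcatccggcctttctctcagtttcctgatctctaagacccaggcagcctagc
Gimap5, chr6:48745947-48746196, plus strand: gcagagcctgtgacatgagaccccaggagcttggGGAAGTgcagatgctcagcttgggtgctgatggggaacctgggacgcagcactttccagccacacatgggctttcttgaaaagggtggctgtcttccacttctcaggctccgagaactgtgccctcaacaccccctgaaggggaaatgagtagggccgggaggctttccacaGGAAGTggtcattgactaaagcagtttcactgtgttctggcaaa
Gimap4, chr6:48684328-48684577, plus strand: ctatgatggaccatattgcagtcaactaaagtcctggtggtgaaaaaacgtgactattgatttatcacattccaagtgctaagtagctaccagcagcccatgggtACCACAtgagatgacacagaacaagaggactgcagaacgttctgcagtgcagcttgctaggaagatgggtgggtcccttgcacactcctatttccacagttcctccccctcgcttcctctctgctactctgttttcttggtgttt

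Windows for all 8 members were found and searched on both strands for 5 motifs. The ETS core stood in the windows of Gimap6 and Gimap5 and in 19.7% of the 32851 mouse promoter windows of this length. The RUNX core stood in those of Gimap4, Gimap7 and Gimap1 and in 14% of all windows. The E-box CAGGTG was found for Gimap9 alone (17.2% of all windows), and neither the GATA core AGATAA (9.99% of all windows) nor the κB motif (3.90%) was found for any member. These matches describe letters in these windows only. Of the members, Gimap3 and Gimap5 shared stretches of 50 or more bases between their transcripts (190 of the 2096 words of 50 bases in Gimap3 and of the 1904 in Gimap5), but none within the last 500 bases, where 3′ reads mostly fall, and no other pair of members shared any.

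The levels of the family by cell type were examined first. Since 3′ UMIs count each molecule once whatever its length, CPM was compared between members without a length correction. Differences between members in capture or mapping were not tested. In the WT stem cell gate the 8 members summed to 646 CPM (628 to 665), and in the KO stem cell gate to 672 CPM (648 to 696). The endothelial gate reached the same range, with 672 CPM (625 to 720.3) in the WT and 662 CPM (621 to 704) in the KO. These were the highest sums of all gates in both libraries, and their intervals overlapped. The Flt3 lymphoid-primed gate (439 CPM in WT and 504 in KO), the Il7r lymphoid gate (408 and 416) and the multipotent gate (387 and 442) followed, and neighbours in the order of these 3 overlapped in their intervals. Macrophages (225 and 211 CPM), megakaryocyte-erythroid cells (209 and 187) and early neutrophils (159 and 147) were lower, and Kit-negative erythroid cells were lowest, with 20.1 CPM in WT and 21.2 in KO.

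In stem cells Gimap6 and Gimap1 made up most of this signal (39.1% and 35.4% of the family UMIs in WT, 39.7% and 36.8% in KO). Gimap6, whose protein binds the autophagy protein GABARAPL2, stood at 253 CPM (241 to 265) in WT against 267 CPM (252 to 283) in KO stem cells. Gimap1, required for the survival of mature B and T cells, stood at 229 CPM (218 to 240.0) and 247 CPM (232 to 262). For both genes the stem cell gate was the highest of the 14 gates in both libraries, and its interval did not overlap that of the next gate, which was endothelial for Gimap6 (171 and 188 CPM) and lymphoid-primed for Gimap1 (151 and 167 CPM). The lead of Gimap6 over endothelial cells was not kept under some other gate and doublet settings, whose values are given below.

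Gimap5, the lysosomal member with known roles in stem cells and endothelium, reached 70.5 CPM (56.1 to 87.5) in WT against 76.8 CPM (63.5 to 92) in KO endothelial cells and 53.3 CPM (48.1 to 59) and 56.3 CPM (49.5 to 63.8) in stem cells, and the intervals of these gates overlapped in both libraries. Overlap of CPM intervals does not show that gates are alike, and the ratio of these gates is given below. Gimap9, a little-studied member, was highest in lymphoid-primed cells (74.5 CPM in WT and 81.1 in KO) and the intervals of neighbours in the order overlapped down through the lymphoid, stem cell and multipotent gates in WT (68.8, 57 and 53.6 CPM). Gimap8, the largest member, which carries several GTP-binding domains in tandem, was concentrated in fewer gates. It had 27.1 CPM (23.4 to 31.2) in WT against 26.3 CPM (21.7 to 31.6) in KO stem cells and 34.4 CPM (24.6 to 46.8) and 21.7 CPM (14.9 to 30.4) in endothelial cells, whereas no other gate exceeded 7.49 CPM in either library.

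The remaining members were rare outside single gates. Gimap4, whose protein accelerates the death of T cells, had 13.3 CPM in WT and 12.1 in KO stem cells and 16.8 and 15.9 in lymphoid cells, but 226 CPM (199.6 to 255) and 230.4 CPM (207 to 256) in endothelial cells. Gimap7, a GTPase that is active as a dimer, did not exceed 14.1 CPM in any gate. Its stem cell, lymphoid-primed and lymphoid CPM intervals overlapped, and its ratio of lymphoid over stem cells is given below. Gimap3, a close relative of Gimap5, rested on 27 UMIs (3.83 CPM) in WT and 14 UMIs (3.2 CPM) in KO stem cells, the highest value of any gate.

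**Figure D2:**
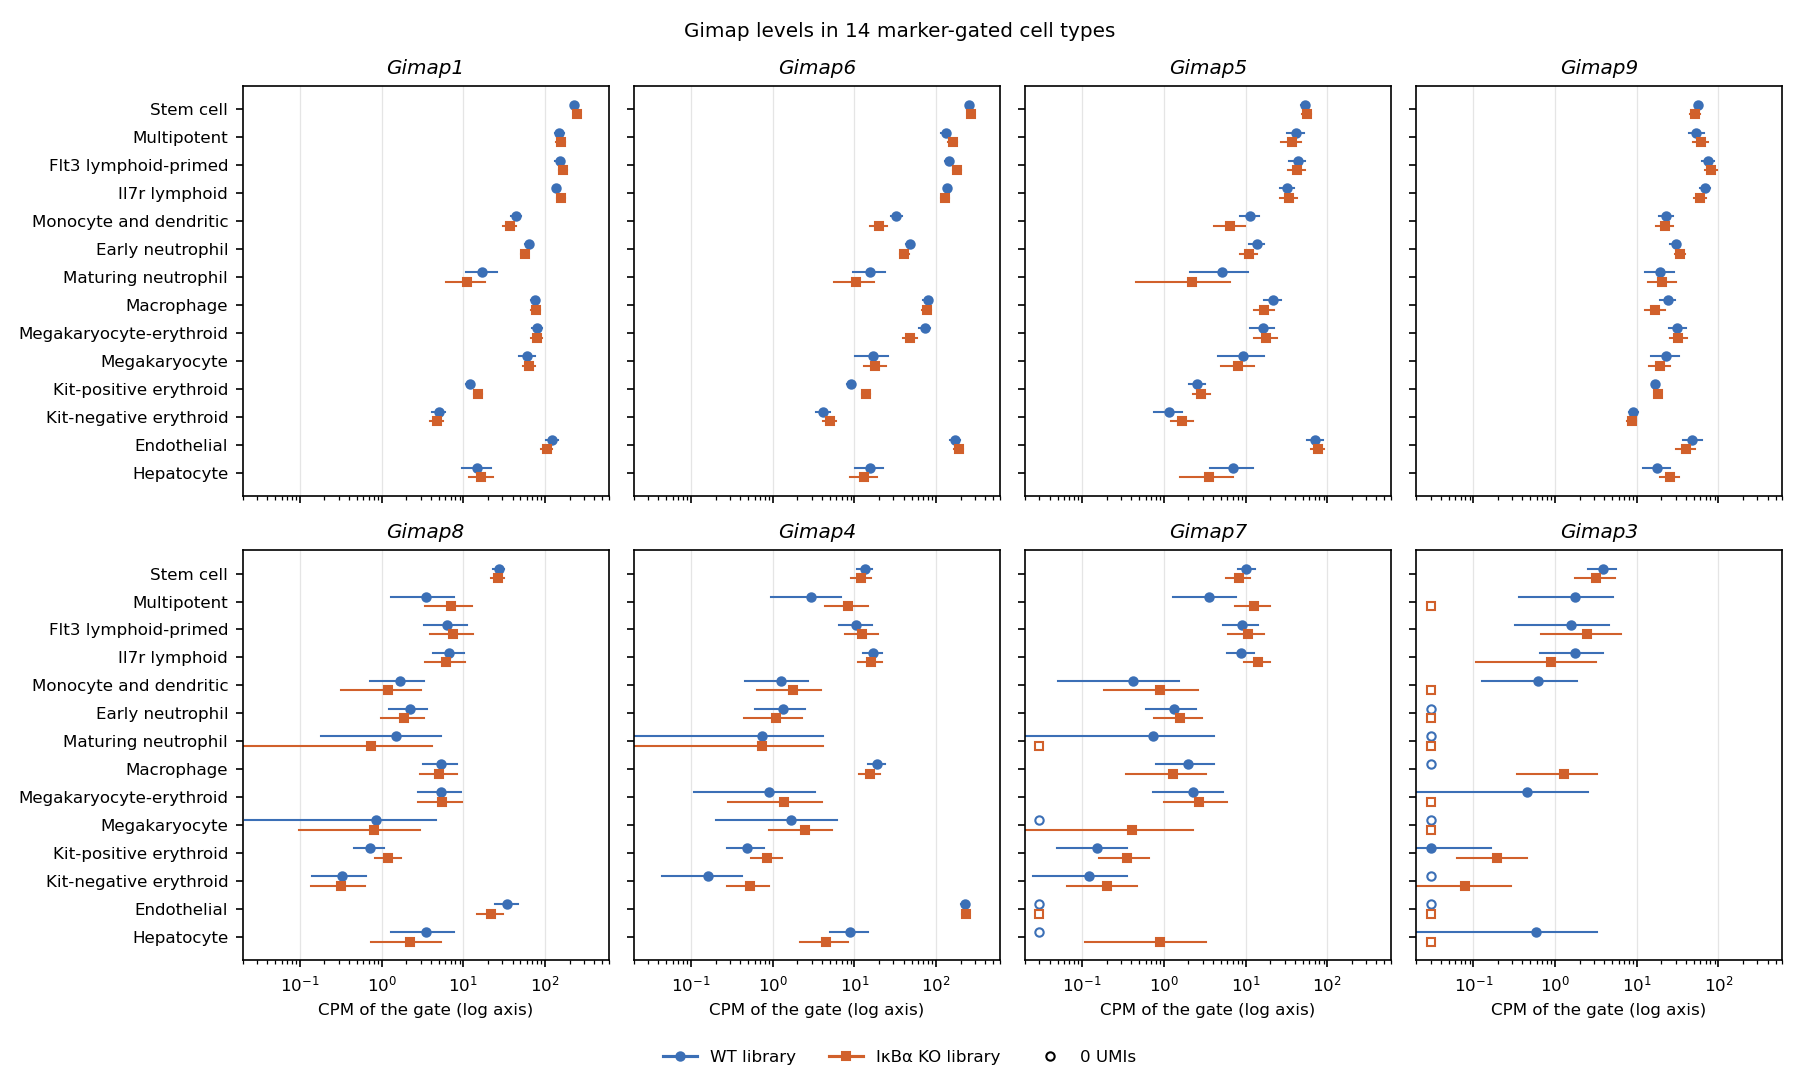
Levels of the 8 Gimap genes in 14 marker-gated cell types. Each panel plots CPM of the summed UMIs of a gate on a log axis, with 95% Poisson intervals as lines, for the WT (circles) and IκBα KO (squares) libraries, and open symbols at the left edge mark gates with 0 UMIs. Gimap1 and Gimap6 lead in stem cells, Gimap4 stands apart in endothelial cells, and Gimap9 falls least in the erythroid gates.

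Since these GTPases are known chiefly from lymphocytes, lymphoid cells were next compared with stem cells. The family was lower, not higher, in the Il7r lymphoid gate: the log2 ratio of lymphoid over stem CPM was -0.66 (-0.75 to -0.58) for the sum in WT and -0.69 (-0.80 to -0.59) in KO, beside a median over all genes tested of -0.076 and -0.051. Gimap6 (-0.89 [-1.04 to -0.74] in WT and -1.06 [-1.25 to -0.87] in KO), Gimap1 (-0.74 [-0.90 to -0.59] and -0.65 [-0.83 to -0.48]) and Gimap5 (-0.74 [-1.06 to -0.42] and -0.75 [-1.14 to -0.37]) were lower by similar amounts. Gimap8 differed most, with 23 UMIs in lymphoid against 191 in stem cells in WT and 14 against 115 in KO, which gave log2 ratios of -2.0 (-2.69 to -1.37) and -2.09 (-3.0 to -1.28). Thus the intervals of these 4 members lay below 0 in both libraries. For Gimap5 this depended on the gates: its interval crossed 0 without cells that met more than 1 gate (-0.25 in WT and -0.24 in KO) and with gates set on cells of equal depth, each thinned to 8000 UMIs (-0.55 and -0.031).

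The other members did not follow. Gimap9 was higher in lymphoid than in stem cells in WT (0.27 [0.032 to 0.51]), and its KO value of 0.22 (-0.10 to 0.53) had an interval that included 0. Under the other settings the WT interval excluded 0 in 8 of 12 and the KO interval in 5 of 12, with KO values from 0.034 to 1.04. Gimap4 had 0.33 (-0.17 to 0.82) in WT and 0.39 (-0.26 to 1.03) in KO, both with intervals across 0. Gimap7 had -0.21 (-0.88 to 0.42) in WT but 0.78 (0.046 to 1.51) in KO, from 30 and 32 lymphoid UMIs, and the KO interval of Gimap7 excluded 0 in 9 of 12 other settings. Gimap3 was too rare to be placed (6 lymphoid UMIs in WT and 2 in KO). No member passed a log2 ratio of 1 upwards, beside 3.46% of all genes in WT and 4.01% in KO, and 2 members passed it downwards in each library (Gimap3 and Gimap8 in WT, Gimap6 and Gimap8 in KO), beside 10.1% and 9.91% of all genes. The size of the difference depended on how the gates were drawn: without the lymphoid cells that met a further gate, the sum was -0.34 in WT and -0.42 in KO, and with gates set on cells of equal depth the KO value was -0.28.

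The Flt3 lymphoid-primed gate was also lower. There the sum was -0.56 (-0.66 to -0.45) in WT and -0.41 (-0.53 to -0.30) in KO relative to stem cells, beside medians over all genes of -0.26 and -0.14, and with median-of-ratios scaling the WT value was -0.31. Gimap8 was again lowest (-2.09 [-3.07 to -1.26] and -1.81 [-2.81 to -0.95]), and it was the only member with at least 20 UMIs to be lower by 1 or more in both libraries, beside 17.7% and 11.9% of all genes. Gimap9 was higher in lymphoid-primed than in stem cells in both libraries, by 0.39 (0.099 to 0.67) and 0.65 (0.33 to 0.97), and the interval excluded 0 in 9 of 12 (WT) and 11 of 12 (KO) other settings. Multipotent cells, defined by Kit and Cd34 without Hlf and Mecom, were lower than stem cells as well, with sums of -0.74 (-0.86 to -0.62) and -0.60 (-0.73 to -0.48).

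**Figure D3:**
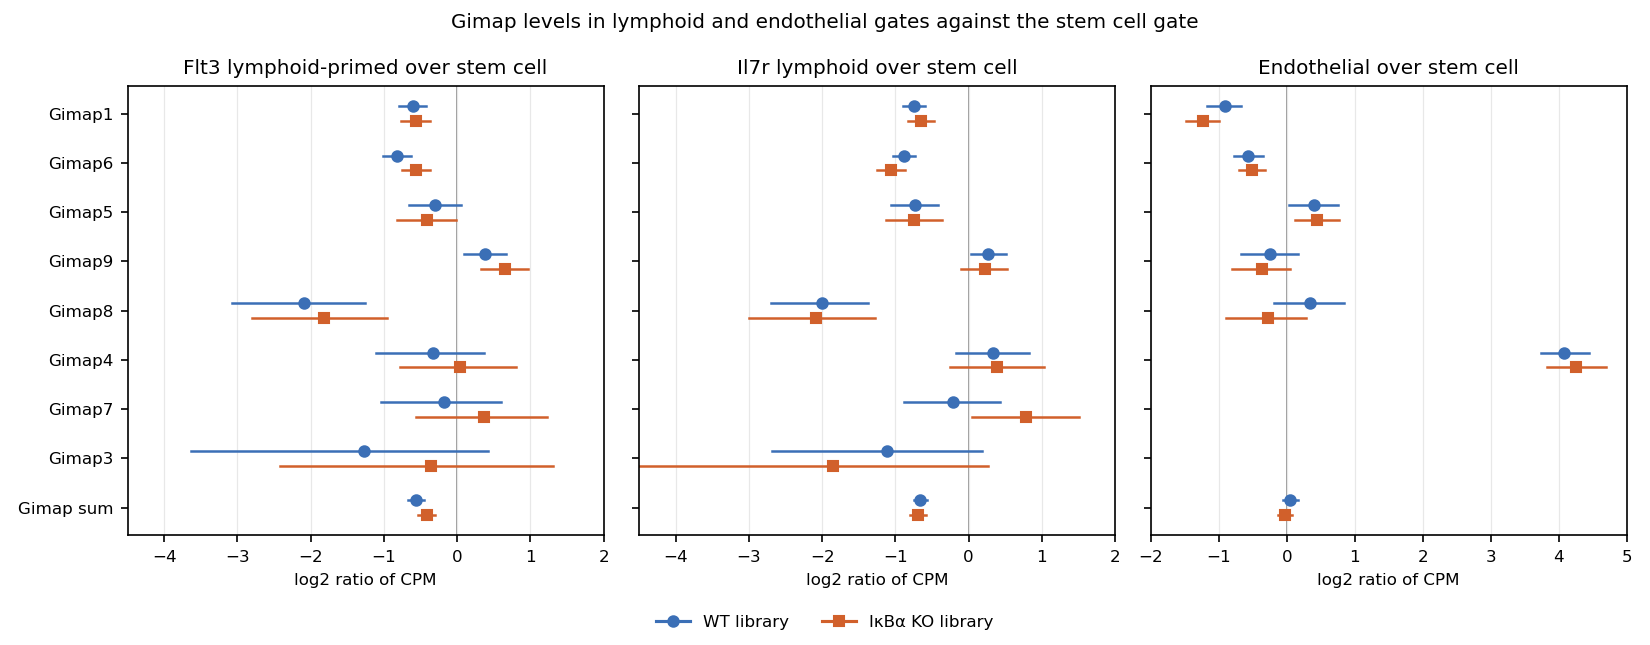
Gimap levels in the Flt3 lymphoid-primed, Il7r lymphoid and endothelial gates against the stem cell gate. The horizontal axis gives the log2 ratio of CPM, points the value of each member and of the family sum in the WT (circles) and IκBα KO (squares) libraries, lines the exact 95% intervals (cut off at the panel edge for Gimap3), and members with 0 endothelial UMIs have no point. Gimap8 lies near -2 in both lymphoid gates, Gimap9 lies right of 0, and Gimap4 lies near 4 in endothelial cells.

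Lymphoid genes outside the family were compared between the same gates. Of 27 lymphoid genes, 19 had no part in the lymphoid gate, of which 14 (WT) and 15 (KO) had at least 20 UMIs. Of these, 8 (WT) and 9 (KO) were higher in the Il7r lymphoid gate by a log2 ratio of 1 or more, among them Satb1 (1.97 in WT and 2.08 in KO), Notch1 (1.64 and 2.02), Ets1 (1.75 and 1.99) and the surrogate light chain gene Vpreb1 (5.06 and 5.82). Of the same genes, 4 were below 0 in each library. Ltb, a cytokine gene of lymphoid cells, passed 1 downwards in both (-1.98 and -2.27). Gata3, a T lineage transcription factor, was at -1.41 in WT but at -0.27 (-1.38 to 0.75) in KO, with an interval across 0. Il2rg, the common cytokine receptor chain, was at -0.76 and -0.53. Genes such as Igll1, Cd79a and Blnk reached the minimum of 20 UMIs almost only through the lymphoid gate, so these counts describe the gate and are not weighed against the Gimap genes.

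Of 6 genes whose proteins are described to bind or act with GIMAPs, none differed by a log2 ratio of 1 between the lymphoid and stem cell gates. Bcl2, the survival factor of lymphocytes, was higher by 0.50 in WT and 0.58 in KO, with intervals above 0. Bax, a death effector, was higher by 0.25 and 0.43, also with intervals above 0. Gabarapl2, the autophagy partner of GIMAP6, was at -0.27 and -0.31, with intervals below 0. Mcl1 was at -0.21 (-0.39 to -0.029) in WT and at -0.026 (-0.26 to 0.20) in KO. Bcl2l1 (0.40 and -0.31) and Gsk3b (0.049 and 0.012) had intervals across 0 in both libraries.

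Genes around the cluster were also examined. Of 25 further annotated genes within or up to 250 kb beyond the cluster, 11 had at least 20 UMIs in these gates. Of these 11, 6 in WT and 3 in KO were lower by a log2 ratio of 1 or more, beside 10.1% and 9.91% of all genes. None was higher by as much, beside 3.46% and 4.01% of all genes. Their median was -1.13 in WT and -0.64 in KO, beside -0.076 and -0.051 over all genes tested. In WT, AI854703 (43 stem cell and 6 lymphoid UMIs), 4833403J16Rik (38 and 8) and Gimap1os (104 and 13) reached 20 UMIs through the stem cell gate. The counts and medians thus describe the genes kept by this filter and are not read as a property of the region. Zfp467 (-1.55 and -1.76) and Gm5111 (-1.13 and -1.84) passed 1 downwards in both libraries. Gimap1os, a transcript annotated on the strand opposite to Gimap1, was at -1.95 (-2.91 to -1.11) in WT and -2.07 (-3.26 to -1.07) in KO, from 104 and 73 stem cell UMIs. The neighbouring membrane protein genes Tmem176a (-1.17 and -0.94) and Tmem176b (-0.96 and -1.0) were lower as well. Krba1, Lrrc61, Repin1 and Zfp775, which lie in the same stretch, had values between -0.38 and 0.57 with intervals across 0 in both libraries.

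Endothelial cells shared the main members of stem cells but had far more Gimap4. Gimap6 and Gimap1 made up 25.5% and 18.1% of the family UMIs there in WT and 28.4% and 15.9% in KO. Gimap4 was 4.08 (3.74 to 4.44) higher on the log2 scale than in stem cells in WT and 4.25 (3.83 to 4.69) higher in KO, which put it among the 14.9% and 13.9% of genes with a ratio of 1 or more. Gimap5 was 0.40 (0.040 to 0.75) and 0.45 (0.12 to 0.77), above 0 in both. With Procr added to the stem cell gate these values were 0.11 and 0.077, with intervals across 0, and the interval excluded 0 in 10 of 12 other settings in each library. Gimap6 (-0.56 [-0.78 to -0.35] and -0.51 [-0.70 to -0.32]) and Gimap1 (-0.91 [-1.17 to -0.67] and -1.23 [-1.48 to -0.99]) were lower than in stem cells. The Gimap6 difference was not kept without cells that met more than 1 gate (-0.049 in WT and 0.036 in KO) or without Scrublet calls (-0.0049 and -0.071), nor in KO with gates set at equal depth (-0.14), all with intervals across 0. Gimap8 and Gimap9 had intervals across 0 in both libraries. Of all genes, 15.3% in WT and 11.5% in KO were lower by 1 or more. Gimap7 and Gimap3 had 0 UMIs in the endothelial cells of both libraries, where 3 UMIs would correspond to 2.58 (WT) and 1.97 CPM (KO). Set to this floor, the log2 ratio of Gimap7 to stem cells was at most -1.99 in WT and -2.06 in KO. Gimap4 made up 33.7% of all family UMIs in WT and 34.8% in KO endothelial cells, against 2.06% and 1.81% in stem cells.

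The endothelial gate was checked for blood cells. Cdh5, an endothelial cadherin, had a UMI in all 58 WT cells and in 96.2% of KO cells, and Ptprc, the pan-leukocyte gene, in 6.9% and 7.5%. The 54 WT and 74 KO endothelial cells with no Ptprc had 255 CPM (225 to 289) and 243 CPM (217 to 271) of Gimap4, not less than the whole gate. Macrophages, which had 18.9 CPM in WT and 15.3 in KO, carried Cdh5 UMIs in 40.2% and 44.9% of cells, and the part of endothelial RNA in their Gimap4 was not tested.

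The family was lower in the erythroid gates, but not evenly. Kit-positive erythroid cells had a log2 ratio to stem cells of -3.95 (-4.04 to -3.87) for the sum in WT and -3.67 (-3.77 to -3.58) in KO. All 8 members in WT and all 7 with at least 20 UMIs in KO (Gimap3 had fewer) were lower by 1 or more, beside 26.6% and 23.8% of all genes. In WT, Gimap3 reached 20 UMIs only through the stem cell gate (27 UMIs against 1). Gimap6 was at -4.79 (-4.97 to -4.62) in WT and -4.26 (-4.44 to -4.09) in KO and Gimap1 at -4.26 (-4.42 to -4.1) and -4.03 (-4.2 to -3.86). Gimap9 was lower by far less, at -1.77 (-1.96 to -1.58) and -1.51 (-1.74 to -1.27). Early neutrophils had the same order, with -2.41 (-2.58 to -2.24) and -2.71 (-2.91 to -2.51) for Gimap6 and -0.93 (-1.18 to -0.69) and -0.60 (-0.88 to -0.33) for Gimap9. The sum was -2.02 (WT) and -2.19 (KO) in early neutrophils, and 14.8% and 12.8% of all genes were lower by 1 or more.

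The ratio of Gimap9 to Gimap1 UMIs, which does not depend on depth, showed the same shift. It was 0.25 (0.223 to 0.279) in WT and 0.209 (0.181 to 0.242) in KO stem cells, 0.495 (0.401 to 0.607) and 0.487 (0.392 to 0.603) in lymphoid-primed cells, and 1.4 (1.23 to 1.6) and 1.2 (1.04 to 1.37) in Kit-positive erythroid cells. Kit-negative erythroid cells had 1.81 (1.45 to 2.28) and 1.82 (1.45 to 2.3), and hepatocytes 1.2 (0.682 to 2.13) and 1.54 (1.0 to 2.4). The intervals of the erythroid and stem cell ratios did not overlap, and the part of free RNA in the erythroid values was not tested. Gimap9 made up 45.4% of the family UMIs in WT and 40.9% in KO Kit-negative erythroid cells, against 8.83% and 7.7% in stem cells. In megakaryocytes Gimap1 was the leading member, with 54.1% and 56.5% of the family UMIs against 15% and 15.9% for Gimap6.

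To compare positive cells across depths, each cell was thinned to 8000 UMIs, which left out 13 of 386 WT and 59 of 333 KO stem cells and no Il7r lymphoid cell. The Kit-negative erythroid gate, with a median depth of 28051 UMIs in WT and 21260.5 in KO, served as the cell type with the least Gimap RNA, whereas the stem cell gate had medians of 17034 and 12164 UMIs. A UMI of Gimap6 was found in 82.8% (78.6 to 86.5) of WT and 82.8% (77.9 to 87.1) of KO stem cells, against 1.63% and 2.75% of Kit-negative erythroid cells. For Gimap1 the shares were 81.5% (77.2 to 85.3) and 84.7% (79.9 to 88.7) in stem cells, against 2.26% and 2.2%. Without thinning, 97.9% of WT and 91.9% of KO stem cells had a Gimap6 UMI. Both genes were thus detected in most stem cells at a depth at which erythroid cells had almost none.

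In the Il7r lymphoid gate, whose median depth was 30353 UMIs in WT and 20109 in KO, Gimap6 was found in 56.8% (46.3 to 67) and 59.1% (48.1 to 69.5) of thinned cells and Gimap1 in 69.5% (59.2 to 78.5) and 73.9% (63.4 to 82.7). Gimap8 was found in 7.37% and 5.68% of lymphoid and in 18.2% and 16.4% of stem cells. Gimap9 had the reverse order, with 52.6% (42.1 to 63) and 50% (39.1 to 60.9) of lymphoid against 36.5% (31.6 to 41.6) and 36.9% (31.1 to 42.9) of stem cells, and with 5.27% and 5.96% of Kit-negative erythroid cells. In endothelial cells, whose median depth was 14080.5 UMIs in WT and 13574 in KO, Gimap4 was found in 82% (68.6 to 91.4) and 78.6% (67.1 to 87.5) of thinned cells, against 10.2% and 9.49% of stem cells and 0.367% of KO Kit-negative erythroid cells. In WT it was found in 0 of 797 Kit-negative erythroid cells, which allows a share of up to 0.376%.

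**Figure D4:**
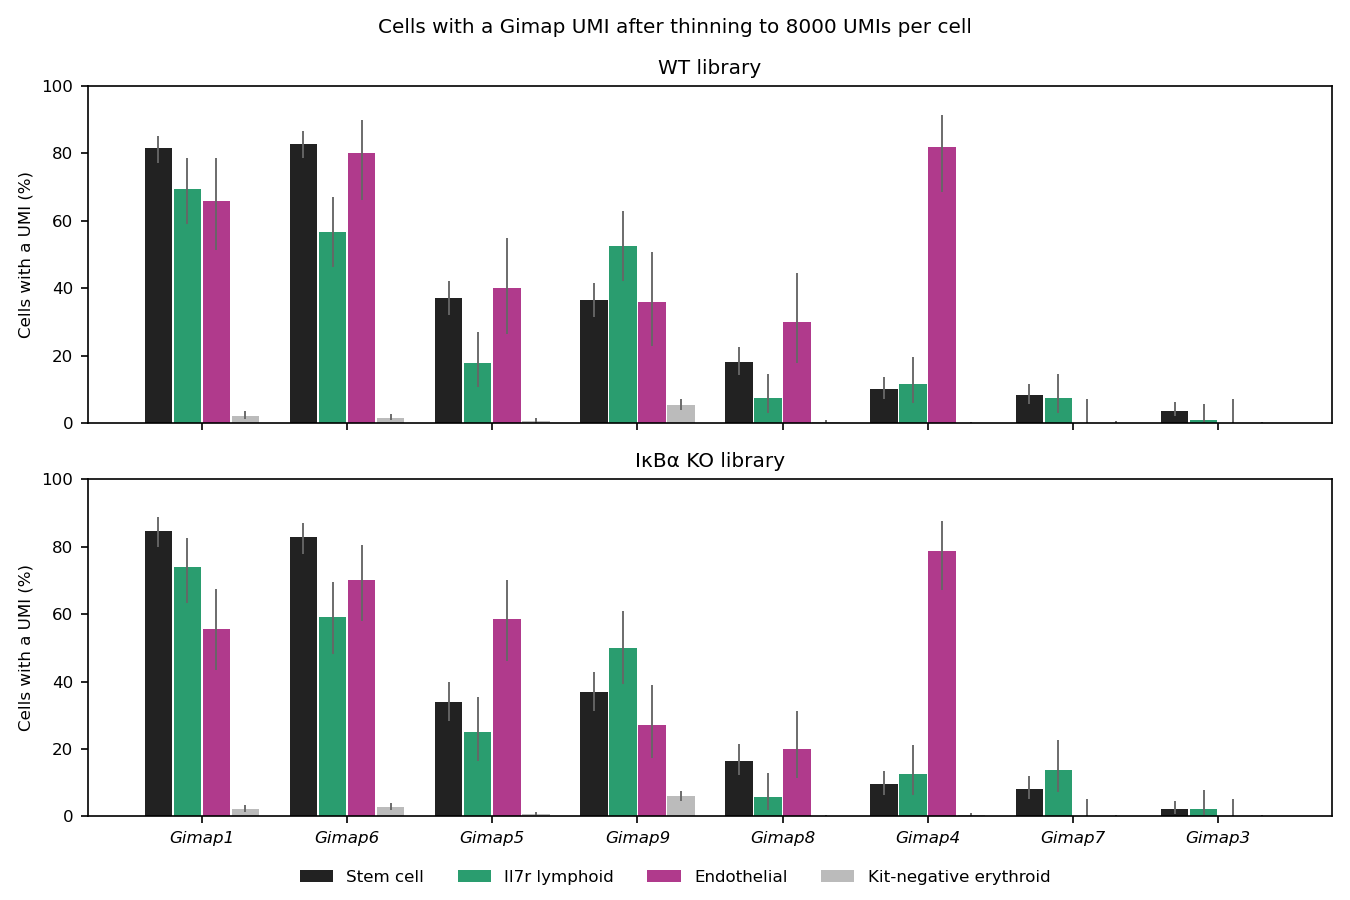
Share of cells with a UMI of each Gimap gene after thinning to 8000 UMIs per cell, in the WT (upper) and IκBα KO (lower) libraries. Bars give the percentage of cells of the stem cell, Il7r lymphoid, endothelial and Kit-negative erythroid gates, and lines the exact 95% binomial intervals. Gimap1 and Gimap6 bars exceed 80% in stem cells of both libraries, Gimap4 bars reach 82% and 78.6% only in endothelial cells, and Kit-negative erythroid bars stay at or below 5.96%.

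At this depth a stem cell carried a median of 3 different members and 5 Gimap UMIs in both libraries, with up to 16 UMIs, and 7 of 373 WT (1.88%, 0.758 to 3.83) and 4 of 274 KO stem cells (1.46%, 0.399 to 3.70) had none. Lymphoid and lymphoid-primed cells carried a median of 2 members, and 10.5% of WT and 5.68% of KO Il7r lymphoid cells had none. Endothelial cells carried 3.5 (WT) and 3 (KO), and 1 cell in each library had none. Of Kit-negative erythroid cells, 91.2% in WT and 90.0% in KO had no Gimap UMI. The family was thus found in nearly every stem and endothelial cell.

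The gates were then split further. Stem cells thinned to 8000 UMIs were divided by whether any of 8 proliferation transcripts (Mki67 and others) was detected, a split chosen after the data had been seen. The 45 WT stem cells without any had 801 CPM (727 to 881) for the family sum and the 328 with them 629 CPM (610.2 to 649). In KO the 9 cells without had 848 CPM (673 to 1054) and the 265 with 638 CPM (613 to 664). The log2 ratio of proliferating over other stem cells was -0.35 (-0.49 to -0.20) in WT and -0.41 (-0.73 to -0.073) in KO, and for Gimap6 -0.29 (-0.52 to -0.043) and -0.76 (-1.22 to -0.27). Gimap1 was at -0.23 (-0.48 to 0.034) in WT and 0.13 (-0.49 to 0.83) in KO, both with intervals across 0. In KO no member other than Gimap6 had an interval that excluded 0. With the split made on all UMIs, which leaves 34 WT and 20 KO cells without these transcripts, the ratio of the sum was -0.38 (-0.56 to -0.21) and -0.49 (-0.74 to -0.22). The cells without proliferation transcripts were shallower before thinning (median 10574 against 17903.5 UMIs in WT), and the part of depth in this difference was not tested.

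Lymphoid cells were divided by Rag1, Rag2 and Ebf1, genes of antigen receptor rearrangement and B lineage commitment that are among those accepted by the gate. This split and those by Ptprc and Hlf were likewise chosen with the data in view. The 60 WT cells with a UMI of any had 20.6 CPM (15 to 27.7) of Gimap4 and the 35 without 10.3 CPM (5.47 to 17.6). In KO these values were 21.7 CPM (15 to 30.3) in 65 and 2.89 CPM (0.35 to 10.4) in 23 cells, the latter from 2 UMIs. Gimap4 was thus higher in the cells with these transcripts, by a log2 ratio of 1.01 (0.087 to 2.02) in WT and 2.91 (0.94 to 6.01) in KO, and so was the family sum (0.18 [0.018 to 0.34] and 0.37 [0.15 to 0.58]).

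Outside the stem cell gate, cells with and without Hlf were also compared. Cells of no gate with Hlf or Mecom had a family sum of 517 CPM in WT and 542 in KO, and those without either gene 139.8 and 124 CPM. Cells without either gene that met the multipotent or the lymphoid-primed criteria had already entered those gates. The ungated cells without Hlf and Mecom were therefore a remainder set by the gate rules, and their lower sum is not read as an effect of Hlf. In the macrophage gate, where Hlf had a UMI in 36.6% of WT and 29.9% of KO cells, the sum was 307 CPM (280.3 to 335) in the 30 WT cells with Hlf and 159 CPM (142 to 177) in the 52 without. In KO it was 358 CPM (326 to 392) in 38 and 107 CPM (92.5 to 123) in 89 cells. The macrophages with Hlf were also deeper than those without (median 43231 against 36642 UMIs in WT and 32490.5 against 15186 in KO). The parts of depth, of doublets and of stem cell RNA in this difference were not tested.

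Finally, KO and WT cells of the same gate were compared. The stem cell sum gave a log2 KO/WT ratio of 0.056 (-0.012 to 0.12). No member passed 0.5 in either direction, beside 11.4% of all genes, and the values of the 8 members lay between -0.31 (Gimap7) and 0.11 (Gimap1), all with intervals across 0. The intervals of Gimap1 (0.11 [-0.0013 to 0.22]) and Gimap6 (0.078 [-0.029 to 0.19]) were the narrowest, and that of Gimap3 (-0.26 [-1.3 to 0.72]) the widest. The sum became -0.043 with stricter gates and -0.046 with gates set at equal depth. At this depth a change of Gimap3, Gimap4 or Gimap7 smaller than their wide intervals was not detectable.

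For the Il7r lymphoid gate the corresponding ratio of the sum was 0.027 (-0.094 to 0.15). It was 0.33 with gates set at equal depth (32 WT and 23 KO cells) and 0.22 without cells with Hlf. Gimap7 passed 0.5 (0.68 [-0.084 to 1.45], from 30 WT and 32 KO UMIs), with an interval across 0, as 15.3% of all genes did in either direction. Gimap1 was 0.20 (-0.0021 to 0.40) and Gimap6 -0.094 (-0.31 to 0.12). In the lymphoid-primed gate the sum was higher in KO by 0.20 (0.057 to 0.34), with Gimap6 at 143 CPM in WT and 181 in KO, a log2 ratio of 0.34 (0.093 to 0.58), beside a median over all genes of 0.053. With gates set at equal depth these values were 0.064 and 0.048, both with intervals across 0. None of the members with at least 20 UMIs passed 0.5 there, beside 20.3% of all genes.

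Larger values were found in other gates. Monocyte and dendritic cells had 32.6 CPM (27.7 to 38.2) of Gimap6 in the WT and 19.8 CPM (15.4 to 25.2) in the KO, a log2 ratio of -0.72 (-1.16 to -0.30), and Gimap5 was at -0.80 (-1.58 to -0.057), and the sum at -0.37 (-0.58 to -0.17), in a gate where 13.1% of all genes passed 0.5. In Kit-positive erythroid cells Gimap6 was higher in KO (9.12 CPM in WT and 13.9 in KO, log2 ratio 0.61 [0.38 to 0.83]), as was the sum (0.34 [0.23 to 0.45]). All 6 members with at least 20 UMIs were higher there, 2 of them with intervals above 0. Of the 6, 3 passed 0.5 (Gimap4, Gimap6 and Gimap8), beside 8.81% of all genes in either direction. Gimap6 was at 0.33 there among Xist-positive cells that lacked Y-linked UMIs, and at 2.42 with gates set at equal depth (75 WT and 80 KO cells). In multipotent cells Gimap7 was at 1.84 (0.44 to 3.46), from 6 WT and 18 KO UMIs, and 19.9% of all genes passed 0.5. With gates set on cells of equal depth, the multipotent and monocyte sums changed sign (-0.20 and 0.31). WT cells were deeper than KO cells, and the gates count UMIs, so that gate membership and genotype cannot be told apart from depth in these values. In endothelial cells the sum was at -0.021 (-0.16 to 0.12) and Gimap4 at 0.027 (-0.21 to 0.26).

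**Figure D5:**
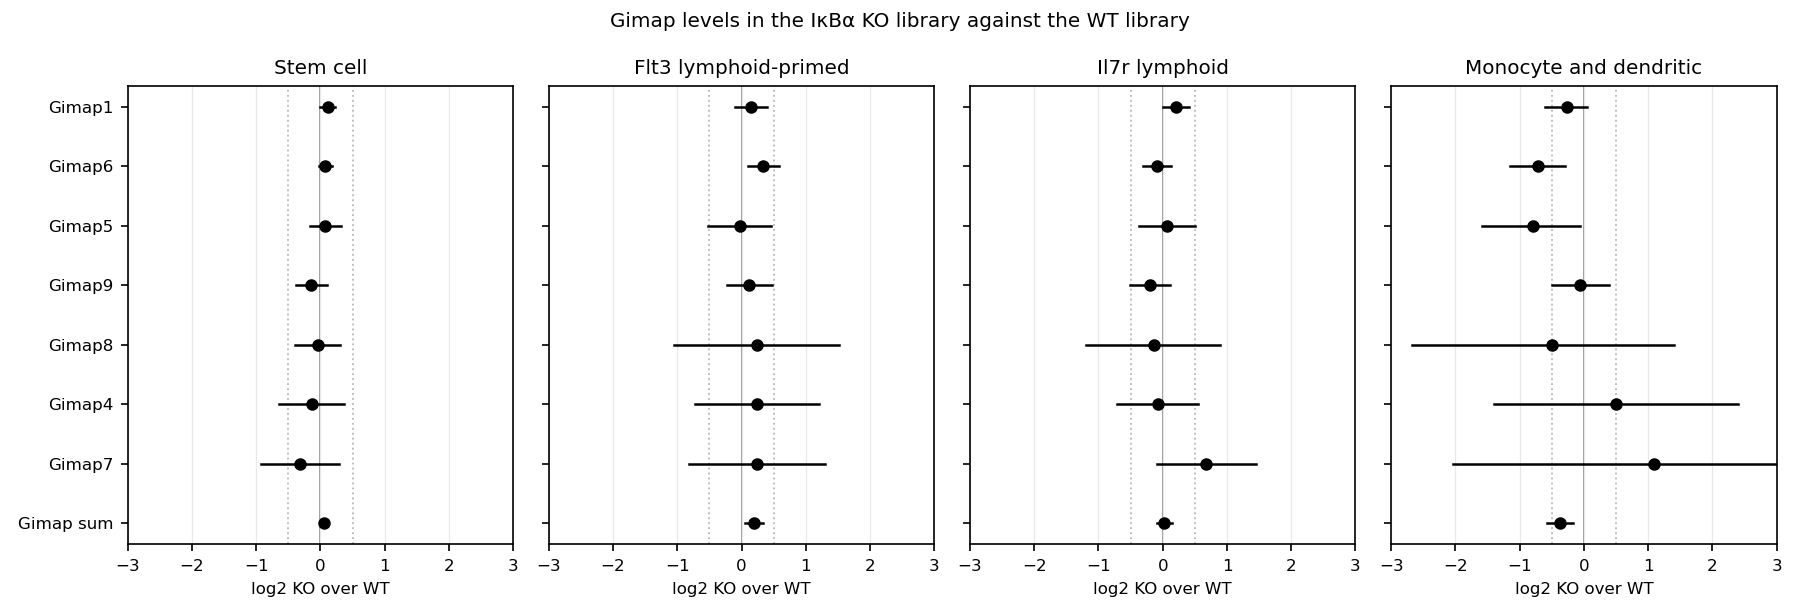
Gimap levels in the IκBα KO library against the WT library in 4 gates. The horizontal axis gives the log2 KO over WT ratio of CPM, points the 7 members other than Gimap3 and the family sum, lines the exact 95% intervals (cut off at the panel edge), and dotted lines a log2 ratio of 0.5 in either direction. In the stem cell panel all points lie between the dotted lines, and in the monocyte and dendritic panel Gimap6 and Gimap5 lie left of them.

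The genes whose levels were most like those of the members were sought over 28 points (14 gates in each of 2 libraries) among 11521 genes, as Pearson r of log2(CPM + 1). The points share cells gated by few genes and 2 libraries, so r describes these gates only. Gimap5 and Gimap6 were each other's nearest gene (r = 0.978), and Gimap1 was like Rcn2 (0.952), Gimap6 (0.95) and Gimap5 (0.945). Gimap8 was most like Hoxa5 (0.970), a homeobox gene of stem cells. Gimap4 was most like Ppp1r16b (0.944), Ets1 (0.943) and Plk2 (0.931), Gimap9 like Mex3a (0.924), Sox13 (0.9) and Cep68 (0.896), and Gimap7 like Dyrk4 (0.93). Between members r was lowest for Gimap4 with Gimap7 (0.234), and Gimap4 with Gimap1 had 0.594.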

How the data were processed

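The authors processed 10x 3′ v3 libraries with Cell Ranger (6.0.0, per the submitters' processing notes; mouse build mm10) and deposited, for each library, a matrix of uncorrected UMI counts (genes by barcodes). These held 3840 barcodes with 109122324 UMIs (WT) and 4928 barcodes with 100029143 UMIs (KO). Free RNA was not corrected.

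Barcodes below 1000 detected genes or above 20% mitochondrial UMIs were dropped, and the others entered the first of 14 gates whose marker counts they met. UMIs of a gate were summed and given as CPM with exact Poisson intervals. Ratios have exact conditional (Clopper-Pearson) intervals and shares exact binomial ones (Python 3.11.15, scipy 1.17.1, numpy 2.4.6). Counts over genes used those with at least 20 UMIs in both groups together and a log2 ratio of 1 between gates or 0.5 between genotypes. A floor of 3 UMIs replaced 0 in bounds. Named were all members, the partner, lymphoid and locus lists, and the 3 genes most like each member with at least 200 UMIs. Members and lists were chosen with earlier results of these data known. Scrublet, run in scanpy 1.11.5 for an expected 5% of doublets, marked cells that were left out only as an alternative. On simulated counts of the stem cell gate (10464 genes), intervals held the true ratio for 95.5% of 200 changed genes. These counts were drawn with Poisson error alone, so such coverage was built in. It does not bear on the spread among cells, embryos or libraries. Positions come from GENCODE vM21 and promoters from RefSeq, both GRCm38.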

Additional observations from a re-analysis of the deposited data

Results flagged for a closer look

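The KO/WT ratio of Gimap6 and of the family sum had intervals on opposite sides of 0 in different gates, and the difference between the gates was not tested. For the sum, the log2 KO/WT ratio was 0.19 in multipotent, 0.20 in lymphoid-primed and 0.34 in Kit-positive erythroid cells, but -0.37 in monocyte and dendritic cells. For Gimap6 it was 0.30, 0.34 and 0.61 in the first 3 gates, -0.72 in monocyte and dendritic cells and -0.60 in megakaryocyte-erythroid cells. With gates set on cells of equal depth, the Gimap6 values were -0.13, 0.048, 2.42, 0.34 and 0.67 in the same order.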

How the results depend on the processing

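The log2 ratio of the family sum in lymphoid over stem cells kept its direction in all 13 alternatives in both libraries. It moved beyond its counting interval when Scrublet calls were left out (-0.55 in WT and -0.56 in KO), without cells that met more than 1 gate (-0.34 and -0.42), with stem cells that had Hlf or Mecom (-0.49 and -0.53) or Procr as well (-0.85 and -0.93), and in KO with gates set on cells thinned to 8000 UMIs (-0.28) or without lymphoid cells with Hlf (-0.54). The lymphoid-primed over stem ratio in WT was -0.69 with thinned gates, -0.31 with median-of-ratios scaling, -0.39 with Hlf or Mecom and -0.75 with Procr. The KO/WT ratio of the sum was -0.043 with stricter and -0.046 with thinned gates in stem cells, and 0.33 with thinned gates and 0.22 without Hlf in the Il7r lymphoid gate, where the thinned gate held 32 WT and 23 KO cells. In lymphoid-primed cells it kept its direction in 11 of 11 alternatives (0.064 to 0.22). The changes to the stem cell and lymphoid gates by Hlf, Mecom or Procr, the endothelial gate without Ptprc and the proliferation split at 8000 UMIs were added with the data in view.

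Beside the stem cell sum, KO/WT values whose intervals had excluded 0 changed sign with thinned gates: the sum was 0.31 in monocyte and dendritic and -0.20 in multipotent cells, and Gimap6 was 0.34, -0.13 and, in megakaryocyte-erythroid cells, 0.67. The cause of these reversals was not tested. Without cells in more than 1 gate, Gimap6 in endothelial over stem cells was 0.036 in KO. The shares of positive cells rose with depth.

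No paired analysis was possible because there is a single library of either genotype, and leaving out a replicate had no meaning for the same reason. The WT library was deeper and almost wholly female, and the KO library mixed in sex, so that embryo, library and genotype cannot be told apart. At these depths members with fewer than 20 UMIs in a pair of gates, such as Gimap3, have no reliable rank. Doublets and free RNA were not removed from the reported values.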
